A study of Mus musculus with 9 samples.

Results

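The let-7 family of mouse adipose tissue was examined for the passenger strands of 6 of its precursors, let-7a-1-3p, let-7b-3p, let-7c-1-3p, let-7c-2-3p, let-7d-3p and let-7e-3p, which make up 6 of the 1251 miRNA rows in the table. These miRNAs were listed by name and were selected on their log2 levels across BAT, SAT and VAT, so their levels and depot differences are given as a description and carry no test. The list leaves out let-7i-3p, a passenger strand that was also measured in every library, and its values stand beside those of the 6. Small RNA was sequenced from brown (BAT, interscapular), subcutaneous (SAT, inguinal) and visceral (VAT, epididymal) adipose tissue, with 3 libraries per depot and 9 in all. All libraries came from male C57BL/6J mice that were 5 to 6 weeks old before acclimation. They then ate the HFD (45% of energy from fat) for 11 weeks and were fasted for 4 hours before harvest. The diet was the same in all 3 groups, so no diet comparison was made. Whole frozen tissue was extracted, and a lower level of a miRNA from fewer cells of a type cannot be told apart from less of it per cell. Libraries are called by the numbers of their labels, BAT 12, BAT 15, BAT 20, SAT 14, SAT 19, SAT 20, VAT 14, VAT 17 and VAT 20.

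A let-7 precursor is a hairpin that is cut by Dicer into a short duplex of its 5p and 3p arms. Argonaute usually keeps the 5p arm, the guide strand, and the 3p arm, the passenger strand, is mostly discarded and degraded. The guides share 1 seed and are among the most abundant miRNAs of differentiated tissues, where they repress genes of growth and the cell cycle. In metabolic tissues let-7 is also known for its action on insulin and growth factor signaling. The passenger strands have seeds of their own, so a retained passenger strand can pair with other messages than its guide.

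The mature sequences show how little the passenger strands share with their guides in the seed and how they differ among themselves. They were taken from RefSeq (GRCm38.p6), which held all 6, and the capitals mark the seed, bases 2 to 8 from the 5′ end.
let-7a-1-3p: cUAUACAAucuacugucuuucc
let-7c-2-3p: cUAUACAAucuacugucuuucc
let-7b-3p: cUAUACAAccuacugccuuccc
let-7d-3p: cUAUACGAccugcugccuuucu
let-7e-3p: cUAUACGGccuccuagcuuucc
let-7c-1-3p: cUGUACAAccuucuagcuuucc
The guides of the precursors whose passenger strands were above the lowest value in every library are shown for contrast.
let-7d-5p: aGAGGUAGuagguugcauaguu
let-7b-5p: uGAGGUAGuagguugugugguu
let-7e-5p: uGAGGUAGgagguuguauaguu

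All 6 passenger strands are 22 bases long. The seed UAUACAA was shared by let-7a-1-3p, let-7c-2-3p and let-7b-3p. The seeds of let-7d-3p (UAUACGA), let-7e-3p (UAUACGG) and let-7c-1-3p (UGUACAA) each occurred once among the 6. The guides all carry GAGGUAG. The mature strands of let-7a-1-3p and let-7c-2-3p are identical, and their deposited values were identical in all 9 libraries, so these rows are 1 measurement and the 6 rows hold 5 sequences. Among the 5 sequences, pairs differed at 3 (let-7a-1-3p and let-7b-3p) to 6 of the 22 positions. The passenger strand let-7i-3p, with the seed UGCGCAA, differed from them at 6 to 11 positions.

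The 6 precursors lie on 4 chromosomes (GRCm38, with GENCODE M21 annotation). Mirlet7d (chr13:48536012-48536114, minus strand) and Mirlet7a-1 (chr13:48538179-48538272, minus strand) lie 2064 bases apart in an exon of the lincRNA 6720427I07Rik, on its strand. Mirlet7c-2 (chr15:85706603-85706697, plus strand) and Mirlet7b (chr15:85707319-85707403, plus strand) lie 621 bases apart in an exon of the processed transcript Lncppara. Mirlet7e (chr17:17830352-17830444, plus strand) lies in an intron of the protein-coding gene Spaca6. Mirlet7c-1 (chr16:77599657-77599750, plus strand) lies in an intron of the processed transcript Mir99ahg and, on the opposite strand, in an intron of Gm11146. These positions place let-7a-1 beside let-7d and let-7c-2 beside let-7b. Outside the members, let-7e was taken with miR-99b and miR-125a, and let-7c-1 with miR-99a. These are not all the neighbours of each locus.

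The deposited values are on a log2 scale. Their lowest value, 3.32, was held by 839 of the 1251 miRNAs in all 9 libraries, and the highest was 18.67 in every library. Read counts were not part of the table, depth is therefore unknown, and precision can be judged only by the scatter of libraries within a depot. Above the lowest value were 255 to 273 miRNAs in BAT, 240 to 285 in SAT and 323 to 349 in VAT. Brown fat miRNAs (miR-193b, miR-365, miR-378a and miR-455 strands) were all above the lowest value in BAT, with a summed level of 17.36 to 18.84 in BAT, 15.16 to 15.23 in SAT and 15.67 to 16.27 in VAT on the log2 scale. White fat miRNAs (miR-196a-5p, miR-196b-5p and miR-335-3p) summed to at most 7.69 in BAT, 11.98 to 12.45 in SAT and 10.52 to 11.29 in VAT. Of these, miR-196a-5p, at the lowest value in BAT, was at 3.96 in VAT 14. miR-196b-5p was at 7.55 in BAT 20 and at the lowest value in BAT 12, BAT 15 and VAT 14. Skeletal muscle miRNAs summed to 10.09 to 18.68 in BAT, 9.83 to 10.78 in SAT and 9.83 to 17.21 in VAT. Of the 5 on that list miR-499-5p was at the lowest value in every library. miR-133a-3p reached 17.20 in BAT 15, 18.67 in BAT 20 and 17.20 in VAT 20, and miR-133b-3p 9.59, 10.82 and 9.76. In BAT 15, BAT 20 and VAT 20, miR-206-3p was at 8.17, 8.23 and 3.63, and miR-1a-3p at the lowest value, 7.38 and 3.83. Epithelial miRNAs (6 listed) were all at the lowest value in BAT and summed to 5.26 to 14.35 in SAT, highest in SAT 14, and to 2.77 to 10.21 in VAT. Leukocyte miRNAs summed to 14.31 to 14.75 in BAT, 13.70 to 16.79 in SAT and 13.03 to 14.33 in VAT, and most of each sum was miR-150-5p. Of the others on that list, miR-155-5p was at the lowest value throughout, miR-223-3p and miR-142-3p were so in BAT, and miR-146a-5p was at 5.94 to 7.32 in BAT, 7.85 to 10.08 in SAT and 9.45 to 9.71 in VAT. Red cell miRNAs summed to 17.68 in each BAT library, 14.86 to 15.28 in SAT and 14.94 to 15.87 in VAT, and most of each sum was miR-486-5p. miR-451a had the opposite order, with 8.82 to 9.71 in BAT, 9.93 to 10.38 in SAT and 11.18 to 11.81 in VAT, miR-144-5p was above the lowest value only in VAT, and miR-144-3p was at it in all 9 libraries. The liver miRNA miR-122-5p was at 6.59 to 10.08 in BAT and at the lowest value in SAT, and endothelial miRNAs summed to 11.52 to 12.23 in BAT, 13.27 to 13.61 in SAT and 13.54 to 13.64 in VAT. The part of these other cell types in the let-7 values was not tested.

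let-7d-3p had the highest level of the 6 in every library. In BAT its log2 level was 14.11, 14.02 and 15.16 in libraries 12, 15 and 20 (14.43 ± 0.64, SD, n = 3). In SAT it was 12.65, 13.09 and 12.98 in libraries 14, 19 and 20 (12.91 ± 0.23, SD, n = 3). In VAT it was 12.20, 12.20 and 12.004 in libraries 14, 17 and 20 (12.13 ± 0.11, SD, n = 3). The depots fell in the order BAT, SAT, VAT with no overlap between neighbours, and BAT 20 stood above the other BAT libraries. Counted from the most abundant miRNA, let-7d-3p ranked 25, 27 and 16 in the BAT libraries, 43, 38 and 39 in SAT and 50, 50 and 53 in VAT. Within the let-7 family it ranked 4 of 13 rows above the lowest value in BAT by mean level, behind the guides let-7c-5p, let-7b-5p and let-7a-5p, and 9 in SAT and in VAT.

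let-7b-3p, which shares its seed with let-7a-1-3p, was the next in level in all 9 libraries. Its log2 level in BAT was 9.39, 9.21 and 9.16 (9.25 ± 0.12, SD, n = 3, libraries in the same order). In SAT it was 7.15, 7.46 and 7.07 (7.22 ± 0.21, SD, n = 3), and in VAT 7.15, 7.26 and 7.22 (7.21 ± 0.05, SD, n = 3). The 3 BAT libraries lay close together and above the other 6, while SAT and VAT overlapped.

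let-7e-3p, the passenger strand of the miR-99b cluster, spread more within each depot than let-7b-3p. In BAT its log2 level was 8.09, 7.84 and 7.00 (7.65 ± 0.57, SD, n = 3). In SAT it was 5.94, 7.27 and 6.89 (6.70 ± 0.68, SD, n = 3), and in VAT 6.42, 6.19 and 5.94 (6.18 ± 0.24, SD, n = 3). BAT lay above VAT in every library, but BAT 20 fell below SAT 19, and SAT overlapped VAT through SAT 14. SAT 14 was also the library with the most epithelial miRNA, and BAT 20 the one with the most muscle miRNA, and the part of either in these values was not tested.

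**Figure D1:**
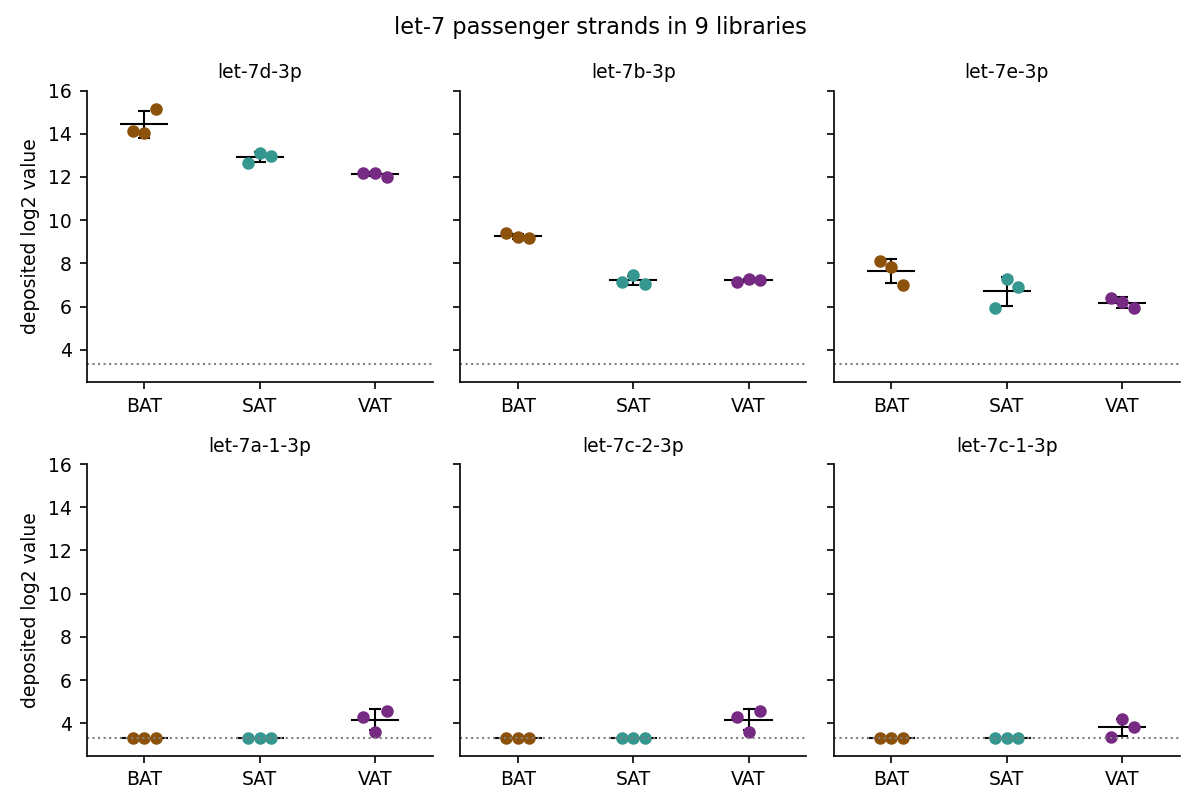
The log2 level of each passenger strand is plotted by library for BAT, SAT and VAT, with points for the 3 libraries of a depot, lines for their mean with the SD and a dotted line at the table's lowest value, 3.32. let-7d-3p steps down from BAT to SAT to VAT, let-7b-3p is high in BAT only, let-7e-3p overlaps between neighbouring depots, and the remaining rows leave the lowest value only in VAT.

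The other 3 rows were at the lowest value in all 6 BAT and SAT libraries. let-7a-1-3p and let-7c-2-3p, with their common sequence, had a log2 level of 4.31, 3.62 and 4.59 in VAT 14, 17 and 20 (4.17 ± 0.50, SD, n = 3). let-7c-1-3p had 3.38, 4.21 and 3.83 (3.81 ± 0.41, SD, n = 3). These levels lie within 1.3 of the lowest value of the table, VAT is the depot with the most miRNAs above that value, and these 3 rows passed the filter of at least 3 libraries above it through VAT alone. No fold is given for them, since BAT and SAT are listed at the lowest value.

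Outside the 6, let-7i-3p was the only passenger strand of the family above the lowest value in at least 3 libraries. In BAT its log2 level was 7.53, 7.41 and 7.00. SAT libraries had 6.43, 7.65 and 7.71, and VAT libraries 7.00, 6.83 and 6.78. BAT and VAT met at 7.00, and the SAT libraries spanned the range of both. let-7f-1-3p was above the lowest value only in VAT 14 (3.54) and miR-98-3p only in VAT 20 (3.83). let-7a-2-3p, let-7f-2-3p and let-7g-3p were at the lowest value in all 9 libraries. So were let-7j and let-7k, whose names give no arm and which are not counted among the guides.

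VAT and BAT were the depots with the most miRNAs called. let-7d-3p was 4.91-fold lower in VAT (log2 fold change -2.30, SE 0.37, n = 3 per depot), let-7b-3p 4.13-fold lower (-2.05, SE 0.08) and let-7e-3p 2.75-fold lower (-1.46, SE 0.36). The 3 rows at the lowest value in BAT were above it in VAT. let-7d-3p, let-7b-3p and let-7e-3p had VAT and BAT libraries that did not overlap, where 72.0% of the 343 tested miRNAs had no overlap. The other 3 rows did not overlap either, which was fixed when they passed the filter through VAT. By limma's adjusted p, 66.2% of all tested miRNAs fell under 0.05. The members were chosen on these levels, and nothing is read from their lack of overlap. The median log2 difference over the 6 rows was -0.49, and over the 5 sequences, with let-7a-1-3p and let-7c-2-3p counted once, it was -1.46. Over all tested miRNAs it was 0.40. Leaving out BAT 15, BAT 20 and VAT 20, the libraries with the most miR-133a-3p, gave log2 fold changes of -1.91 for let-7d-3p, -2.19 for let-7b-3p and -1.79 for let-7e-3p, an alternative chosen after seeing the data.

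In SAT against BAT, let-7b-3p was 4.08-fold lower in SAT (log2 fold change -2.03, SE 0.14) and let-7d-3p 2.87-fold lower (-1.52, SE 0.39), both without overlap. let-7e-3p had a log2 fold change of -0.95 (SE 0.51), with overlapping libraries, and it was -0.57 without SAT 14. The remaining 3 rows were at the lowest value in both depots. Over all tested miRNAs, 52.5% had no overlap and 40.5% had an adjusted p under 0.05 in limma. Without the 3 libraries named above, the log2 fold changes were -1.20 for let-7d-3p, -2.17 for let-7b-3p and -1.39 for let-7e-3p. The comparisons with BAT share its 3 libraries.

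Between the white depots, let-7d-3p was 1.71-fold lower in VAT than in SAT (log2 fold change -0.78, SE 0.15), without overlap. let-7b-3p had a difference of -0.02 (SE 0.12) and let-7e-3p of -0.52 (SE 0.42), and both overlapped. Of the 3 sequences measured in every library, let-7d-3p alone had no overlap, where 39.4% of the tested miRNAs had none. The rows above the lowest value only in VAT could not overlap with SAT, because they passed the filter through VAT. The 6 were chosen on these levels, so no call is given for them and nothing is read from the lack of overlap of let-7d-3p. Limma called 16.0% of all tested miRNAs at the adjusted p threshold of 0.05. That share rested on single libraries, since 0 miRNAs were called by limma without SAT 19 (104 at an unadjusted p under 0.05), 12 without SAT 20, 23 without VAT 14, 5 without VAT 20 and 37 without SAT 14, against 55 with all 6 libraries.

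**Figure D2:**
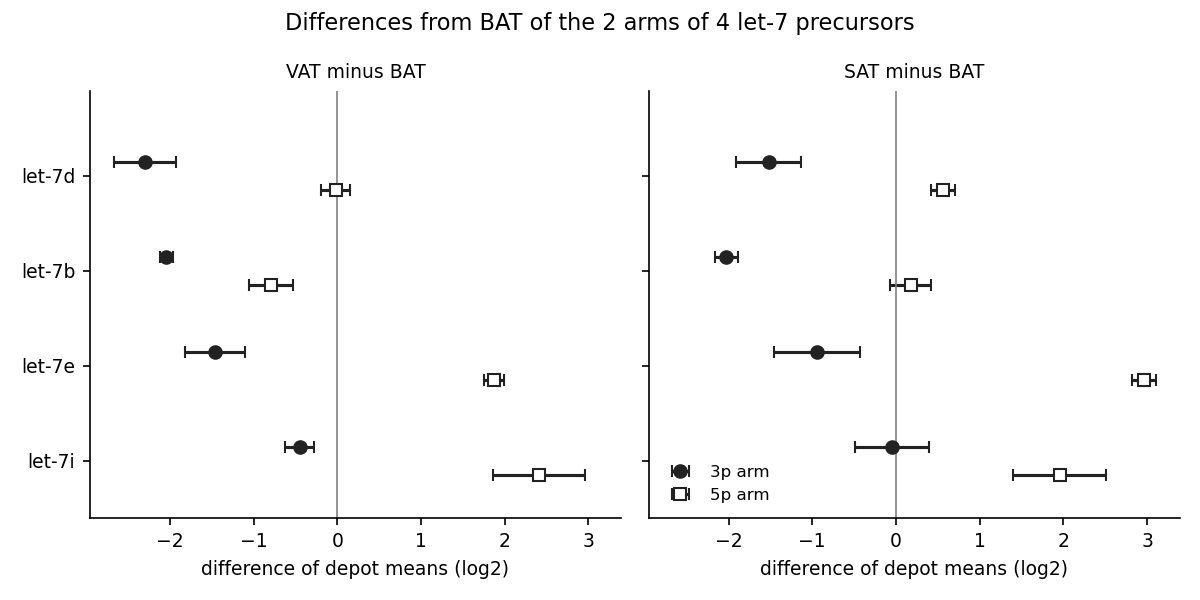
Log2 differences of depot means from BAT are plotted for both arms of let-7d, let-7b, let-7e and let-7i, VAT minus BAT on the left and SAT minus BAT on the right, with filled circles for 3p arms, open squares for 5p arms and bars for the standard error (n = 3 libraries per depot). In VAT minus BAT the 3p arms of let-7d, let-7b and let-7e lie at -2.30, -2.05 and -1.46, and their 5p arms at -0.02, -0.79 and 1.88. Bars of both arms use the library SDs alone, without limma's moderation.

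The guide strands came from let-7 and miR-98 precursors and were not used to choose the passenger strands. Their depot differences were tested, though the guides too were named with earlier results of these data known. In VAT against BAT, 66.2% of all tested miRNAs were called, 135 higher and 92 lower in VAT (limma, Benjamini-Hochberg adjusted p over 343 miRNAs). Of the 9 guides, 7 rose, 1 fell and 1 did not pass the test. let-7e-5p had a log2 level of 11.10, 10.80 and 10.93 in BAT and of 12.98, 12.74 and 12.74 in VAT, and rose by 1.88 (SE 0.22, adjusted p = 0.000596). The SE of a guide is limma's moderated one, while those of the passenger strands come from the library SDs alone, so they are not alike. let-7a-5p, the guide of let-7a-1-3p, rose by 1.71 (adjusted p = 0.00218), and let-7c-5p, the guide of both let-7c precursors, by 1.40 (adjusted p = 0.0133). let-7e-5p thus rose where the level of let-7e-3p was lower. let-7d-5p had 13.74, 13.69 and 14.05 in BAT and 13.74, 14.05 and 13.63 in VAT, a difference of -0.02 (SE 0.24, adjusted p = 0.949), beside the drop of let-7d-3p. let-7b-5p had 15.47, 14.88 and 15.70 in BAT and 14.75, 14.52 and 14.41 in VAT, and fell by 0.79 (SE 0.29, adjusted p = 0.0469). That call was lost in 10 of 17 alternatives, with adjusted p from 0.0156 to 0.231.

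In SAT against BAT, 40.5% of all tested miRNAs were called in limma. Of the 9 guides, 6 rose, none fell and 3 did not pass the test. The 3 that did not pass were let-7b-5p (log2 fold change 0.18, adjusted p = 0.572), let-7f-5p (1.24, adjusted p = 0.0600) and miR-98-5p (1.24, adjusted p = 0.0856). let-7e-5p rose by 2.96 (SE 0.14, adjusted p = 0.000215), from the BAT values above to 14.02, 14.02 and 13.69. let-7d-5p rose by 0.56 (SE 0.14, adjusted p = 0.0342), to 14.24, 14.41 and 14.52, and this call was lost in 12 of 17 alternatives, with adjusted p from 0.0167 to 0.435. The calls of let-7i-5p (adjusted p = 0.0371) and let-7g-5p (adjusted p = 0.0202) were lost in 8 and 5 of 17 alternatives, and those of let-7a-5p, let-7c-5p and let-7e-5p in none. let-7a-5p and let-7c-5p each held the same value in all SAT libraries (SD 0.0), so their own values add no SAT spread to these p-values. In VAT against SAT, 2 guides rose (let-7f-5p and miR-98-5p), 3 fell and 4 did not pass, where 16.0% of all tested miRNAs were called. Those that fell were let-7a-5p by 1.04, let-7b-5p by 0.97 and let-7e-5p by 1.09, each with an adjusted p from 0.0235 to 0.0276. Each of these 5 calls was lost in 6 to 10 of 17 alternatives, with the same direction. let-7i-3p, a passenger strand outside the 6, did not pass in any comparison (adjusted p = 0.139 in VAT against BAT, 0.974 in SAT against BAT and 0.518 in VAT against SAT).

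Set against the guide of its own precursor within each library, let-7d-3p changed sides between depots. Its log2 level minus that of let-7d-5p was 0.37, 0.33 and 1.11 in BAT, so that the 3p strand was 1.52-fold higher on average (0.60 ± 0.44, SD, n = 3). In SAT the difference was -1.59, -1.32 and -1.54 (-1.48 ± 0.14, SD, n = 3), a 2.79-fold excess of the guide. In VAT it was -1.54, -1.85 and -1.63 (-1.67 ± 0.16, SD, n = 3), a 3.19-fold excess. The strand named the passenger was thus the higher arm in all 3 BAT libraries and the lower arm in the other 6. BAT 20 carried the largest excess, and without it the mean in BAT was 0.35. BAT 12, the BAT library with miR-133a-3p at 10.10, had 0.37 by itself. Values of the arms of a precursor within a library share that library's normalization.

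let-7b and let-7e kept the guide as the higher arm in all 9 libraries. let-7b-5p exceeded let-7b-3p 68.4-fold in BAT (log2 difference -6.09 ± 0.43, SD, n = 3), 315-fold in SAT (-8.30 ± 0.18) and 163-fold in VAT (-7.35 ± 0.22). let-7e-5p exceeded let-7e-3p 9.83-fold in BAT (-3.30 ± 0.54), 148-fold in SAT (-7.21 ± 0.75) and 99.3-fold in VAT (-6.63 ± 0.14). In BAT the let-7e difference was -3.002, -2.96 and -3.92, above every SAT and VAT library, the closest of which was VAT 17 at -6.54. For both precursors the arms were closest in BAT, without overlap between BAT and the white depots. For let-7a-1, let-7c-1 and let-7c-2 no arm difference is given, since the 3p strands were at the lowest value in BAT and SAT and their guides are made by more than 1 precursor.

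**Figure D3:**
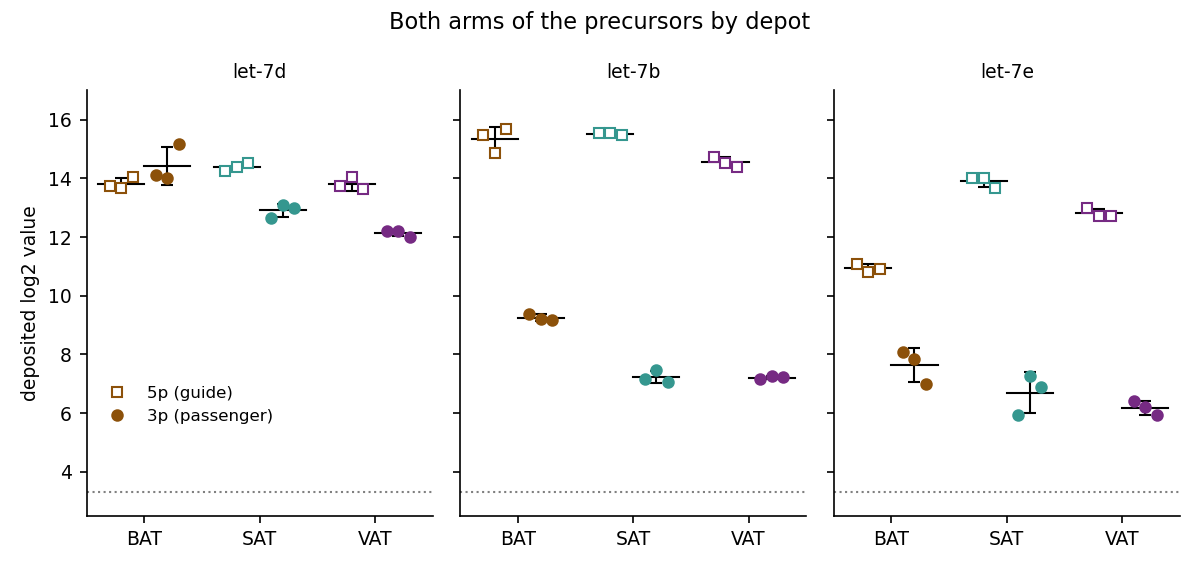
Both arms of let-7d, let-7b and let-7e are plotted as log2 levels by library and depot, with open squares for 5p and filled circles for 3p values of single libraries, lines for depot means with their SD, and a dotted line at the table's lowest value. The 3p points of let-7d lie above its 5p points in BAT and below them in SAT and VAT, while the 5p points of let-7b and let-7e stay on top in all 9 libraries.

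The shift between arms was set beside that of all 94 pairs of 3p and 5p rows of which both were tested. From BAT to VAT, the 3p minus 5p difference changed by -3.34 for let-7e, -2.28 for let-7d and -1.25 for let-7b, which are ranks 6, 19 and 29 of 94 from the most negative. The median change over the 94 pairs was -0.02, with 47 pairs below 0 and 47 above. From BAT to SAT it changed by -3.91 for let-7e, -2.21 for let-7b and -2.08 for let-7d, ranks 4, 18 and 20 of 94, with a median of -0.66 over all pairs. From SAT to VAT it changed by -0.19 for let-7d, 0.57 for let-7e and 0.95 for let-7b, around a median of 0.18. The non-member let-7i changed by -2.85 from BAT to VAT (rank 9) and by -2.001 from BAT to SAT (rank 23). These 4 let-7 pairs thus lay below the median in both comparisons with BAT, and other pairs changed as much or more. The 94 pairs include let-7a-1, let-7c-1 and let-7c-2, and 58 of the 94 have an arm at the lowest value in at least 1 library, where the change is limited. Among the 36 pairs with both arms above it in every library, an alternative chosen after seeing the data, let-7e, let-7d and let-7b ranked 4, 9 and 13 from the most negative from BAT to VAT (median -0.40) and 3, 7 and 6 from BAT to SAT (median -0.71). A 3p arm above its 5p arm in every library of a depot was common, at 32 of the 94 pairs in BAT, 33 in SAT and 37 in VAT. A 3p arm above the 5p arm in every BAT library and below it in every SAT and VAT library was found in 2 of the 94, let-7d and miR-1843b, the latter noticed after its values were seen. That rule is the pattern of let-7d itself, whose 3p arm was chosen on these levels, so nothing is read from its rarity.

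**Figure D4:**
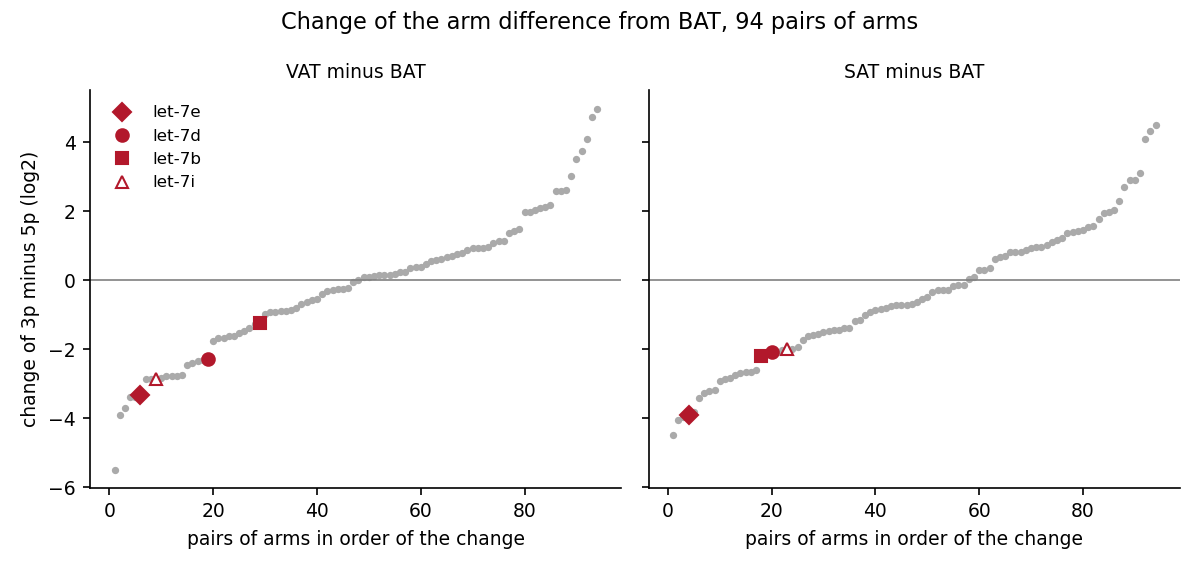
The change of the 3p minus 5p log2 difference from BAT is plotted for all 94 pairs of arms in order of its size, with let-7e, let-7d, let-7b and let-7i marked. let-7e, let-7d and let-7b lie at -3.34, -2.28 and -1.25 in VAT and at -3.91, -2.08 and -2.21 in SAT, on the negative side but not at its end.

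The miRNAs that are transcribed near let-7 precursors, the strands of miR-99a, miR-99b, miR-100, miR-125a and miR-125b, were tested as well (10 of 11 rows passed the filter). In VAT against BAT 6 rose, 3 fell and 1 did not pass the test in limma, where 66.2% of all tested miRNAs were called. In the cluster of let-7e, miR-99b-5p fell by 1.203 (adjusted p = 0.0161) and miR-125a-5p by 1.31 (adjusted p = 0.0109), while let-7e-5p rose. The 3p strands of this cluster did not move together. miR-99b-3p rose by 2.31 (adjusted p = 0.0193, lost in 7 of 16 alternatives, 0.00233 to 0.226), and miR-125a-3p fell by 1.17 (adjusted p = 0.0399, lost in 12 of 16 alternatives, 0.00612 to 0.563), beside a log2 fold change of -1.46 for let-7e-3p. In the cluster of let-7c-1, miR-99a-5p rose by 1.93 (adjusted p = 0.00221), and miR-99a-3p, at the lowest value in BAT, had a mean of 6.62 in VAT (adjusted p = 0.000207). In SAT against BAT 4 of the 10 rose, none fell and 6 did not pass, where 40.5% of all tested miRNAs were called. In VAT against SAT 1 rose, 2 fell and 7 did not pass, where 16.0% of all tested miRNAs were called. Many of the calls of the neighbours depended on the processing. In SAT against BAT, miR-99a-5p lost its call in 10 of 17 alternatives and miR-99b-3p in 7 of 16. In VAT against SAT, the rise of miR-99a-3p was lost in 14 of 16, and the falls of miR-99b-3p and miR-125a-5p in 9 of 16 and 7 of 17. In VAT against BAT, miR-100-5p and miR-125b-1-3p lost theirs in 8 and 5 of 17.

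The miRNAs outside the family whose log2 levels followed each passenger strand most closely over the 9 libraries were listed by Pearson's r, as a description, because the libraries fall into 3 depots. For let-7d-3p these were miR-1843b-3p (r = 0.986), miR-1249-3p (0.978) and miR-744-5p (0.978). For let-7b-3p they were miR-365-1-5p (0.994), miR-3960 (0.993) and miR-193b-5p (0.987), the first and last of which are on the brown fat list. For let-7e-3p they were miR-484 (0.906), miR-350-5p (0.896) and miR-652-3p (0.895). The pair let-7a-1-3p and let-7c-2-3p was closest to miR-450a-5p (0.977), miR-3068-3p (0.960) and miR-511-3p (0.921), and let-7c-1-3p to miR-3096a-5p and miR-3096b-5p (both 0.978) and miR-34c-3p (0.947). Against the guide of its own precursor, r was -0.01 for let-7d-3p, 0.31 for let-7b-3p and -0.60 for let-7e-3p over the same 9 libraries.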

How the data were processed

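Total RNA of BAT, SAT and VAT was the input for Illumina small RNA sequencing. Per the paper's methods, the authors aligned reads to the precursors in miRBase, counted those on mature strands with multi-mapped reads split proportionally, scaled by usable reads per library and added 40 counts. What they deposited is on the log2 scale. The smallest deposited value corresponds to 10, not 40, before logging, and equal ranks hold nearly equal values in all libraries, so differences of low miRNAs are compressed and levels are relative to the other miRNAs. Without counts, depth is unknown and no count test was run.

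Of the 9 libraries, at least 3 had to exceed the lowest value, which left 343 miRNAs to test with limma 3.58.1 in R 4.3.3, pairwise on 6 libraries, two-sided, adjusted by Benjamini and Hochberg over all 343, at an adjusted p under 0.05. An unmoderated t-test at the same adjusted p was an alternative, with other offsets, filters, scalings, blocks and each library left out. The authors' own rule, an unmoderated t-test with a fold cutoff and no stated adjustment for miRNAs, was not run. The fit was tested on simulated data. The paper calls the libraries biological replicates, and the labels do not name the mice, so p-values measure the spread between these libraries. That spread is the one left after a normalization in which equal ranks hold nearly equal values.

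The members, the miRNA lists and the rules for named miRNAs (every let-7 and miR-98 row, the genomic neighbours, the 3 closest patterns outside the family and the cell type lists) were chosen with earlier results of these data known. The labels name no batch. Sequences are from RefSeq and were matched by name.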

Additional observations from a re-analysis of the deposited data

Results flagged for a closer look

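The difference between let-7d-3p and let-7d-5p had opposite signs in BAT and in the white depots. The 3p strand was the higher arm in every BAT library and the lower arm in every SAT and every VAT library, and the mean log2 difference between the arms was 2.08 higher in BAT than in SAT and 2.28 higher in BAT than in VAT. The difference between the depots was not tested, because let-7d-3p was chosen on its levels in these libraries.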

How the results depend on the processing

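let-7d-3p, let-7b-3p and let-7e-3p kept the sign of their differences from BAT under every alternative run. In VAT against BAT the log2 fold changes ranged from -2.50 to -1.91, -2.19 to -1.79 and -1.79 to -1.10, and in SAT against BAT from -1.73 to -1.16, -2.20 to -1.78 and -1.39 to -0.57. In VAT against SAT let-7b-3p ranged from -0.09 to 0.16. The count of miRNAs called in VAT against BAT was 227, and it was 128 without a filter and 120 among the tested miRNAs with the higher means, where fewer were tested. In SAT against BAT it was 139, and 74 without a filter. In VAT against SAT it was 55 (29 higher, 26 lower), 4 without a filter and 2 relative to miR-191-5p (2 higher, 0 lower). It was 30 with all 9 libraries in one fit and 31 without moderation. With single libraries left out the counts were 187 to 236, 112 to 142 and 0 to 49. Relative to miR-191-5p, every SAT minus BAT difference fell by 0.17. Deviations of samples with the same number in their titles had a mean r of 0.05 over 4 pairs (-0.14 to 0.27). The other 23 pairs between depots had a mean of -0.008 (-0.48 to 0.36), and 4 pairs are too few to decide on a shared mouse. A replicate block by that number gave 223 and 183 calls against BAT, with all 9 libraries in one fit. Such a fit without the block gave 221 and 182. In VAT against SAT the block gave 55 calls. A replicate block by the order of the libraries gave 196, 120 and 0 (105 at an unadjusted p under 0.05, limma). The median over the 6 rows was -0.49, -0.47 and 0.23 in VAT against BAT, SAT against BAT and VAT against SAT, and it moved to 0.23 in VAT against BAT and to 1.01 in VAT against SAT with the lowest value subtracted and 1 added, which widens differences near the lowest value. With the identical let-7a-1-3p and let-7c-2-3p counted once (chosen after seeing the data) it was -1.46 in VAT against BAT, -0.95 in SAT against BAT and -0.016 in VAT against SAT, since a row near the lowest value drops out, and with single libraries left out it was -0.65 to -0.38, -0.62 to -0.28 in SAT against BAT and 0.12 to 0.35 in VAT against SAT. With a further 40 added, the 3p minus 5p difference was -7.96 for let-7b in SAT, -7.01 for let-7b in VAT and -6.01 for let-7e in VAT, which was -6.83 with the lowest value subtracted. With single libraries left out it was 0.35 to 0.74 for let-7d in BAT, -1.56 to -1.43 in SAT and -1.74 to -1.58 in VAT. For let-7b it was -6.30 to -5.88, -8.40 to -8.25 and -7.43 to -7.23, and for let-7e -3.46 to -2.98, -7.44 to -6.77 and -6.68 to -6.55. Where not stated, the cause was not tested. Rows within 1.3 of the lowest value cannot be ordered, since the table holds no counts.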

Other observations

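Several let-7 rows held equal values in different libraries. let-7c-5p was at 18.67, the highest value of the table, in all 3 SAT libraries, and let-7a-5p was at 17.77 in all 3. let-7d-3p was at 12.20, rank 50, in both VAT 14 and VAT 17. let-7b-3p was at 7.15, rank 177, in both SAT 14 and VAT 14.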
